A study of Mus musculus with 4 samples.

Results

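Trp53, which encodes the transcription factor p53, and 9 of its target genes were followed in embryonic mouse forebrain with and without intact Tcf20. The targets were Mdm2, Cdkn1a, Ccng1, Bbc3, Bax, Pmaip1, Phlda3, Eda2r and Sesn2. They were taken by gene symbol from the deposited tables, and all 10 were found among the 22084 genes of the joined tables. All 10 also passed the filter on low counts that left 16252 genes for testing. No member differed between the knockout-labelled libraries and the others past the test's threshold. For 8 of the 10 members, the 95% interval of that difference lay within 1.5-fold in either direction, and only the 2 members with the fewest counts, Pmaip1 and Eda2r, had wider intervals.

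Reads of messenger RNA were counted for each gene in 4 libraries from telencephalic tissue, the embryonic region that gives rise to cortex and basal ganglia, of B6D2F2 mouse embryos at E13.5. The libraries KO26F and KO23M carried the genotype label TCF20-/-, and WT25F carried TCF20+/+. The labels of WT22M disagree, since its title says WT and its genotype field says TCF20+/-. Whichever label is right, WT25F and WT22M both carry an intact allele, and the pair is called the carriers. The series asks how Tcf20, a nuclear protein, bears on the formation of neurons. Titles and tissue fields give telencephalic tissue, whereas the extraction protocol gives cerebral cortex. The deleted part of Tcf20, and whether the embryos were littermates, are not stated in the labels. The p-values measure only the spread between these 4 libraries, whose biological and technical parts cannot be told apart.

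p53 is a DNA-binding protein that is kept scarce in unstressed cells, mainly because the ubiquitin ligase Mdm2 marks it for destruction. DNA damage and other stress stabilise the protein, which then raises the transcription of genes that stop the cell cycle, repair DNA or start mitochondrial cell death. Its activity is therefore read from its targets more than from its own messenger RNA. In the developing forebrain, dividing neural progenitors are known to be prone to p53-dependent death when DNA replication or chromosome segregation fails.

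p53 binds a decamer made of a run of purines, a C, a pair of A or T, a G and a run of pyrimidines, usually as a pair of decamers with a short spacer. RefSeq promoter windows of GRCm38.p6, which run from 250 bases before to 50 bases after a gene's start, were matched by symbol for 9 of the 10 members, all but Pmaip1. The decamer, which is its own reverse complement and so is found on both strands at once, was in a window of 5 of these 9 genes (55.6%). It was in 2745 of all 32851 windows (8.36%), and in 2582 of 27025 genes (9.55%). The lines below show these matches with 10 bases on either side, each on its gene's strand, and the capitals mark the decamer.
Trp53 (chr11:69580274-69580303, plus strand): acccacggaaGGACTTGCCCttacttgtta
Mdm2 (chr10:117710925-117710954, minus strand): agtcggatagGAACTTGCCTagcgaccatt
Cdkn1a, first match (chr17:29090896-29090925, plus strand): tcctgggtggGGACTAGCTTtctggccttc
Cdkn1a, second match (chr17:29090918-29090947, plus strand): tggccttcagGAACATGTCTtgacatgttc
Ccng1 (chr11:40755452-40755481, minus strand): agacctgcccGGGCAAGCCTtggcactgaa
Bax (chr7:45467080-45467109, minus strand): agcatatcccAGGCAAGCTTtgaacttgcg
The windows of Bbc3 (3 windows), Phlda3, Eda2r and Sesn2 did not hold these letters. A match describes letters in a window and not a bound site.

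Cdkn1a was the only member with a pair of exactly matching decamers 0 to 13 bases apart, an arrangement found in 24 of the 32851 windows (0.0731%). It has 2 RefSeq windows, and the pair lay in the first, 12 bases apart. The 250 bases before that start are printed because they hold both decamers, in capitals, on the plus strand of chr17:29090729-29090978.
Cdkn1a: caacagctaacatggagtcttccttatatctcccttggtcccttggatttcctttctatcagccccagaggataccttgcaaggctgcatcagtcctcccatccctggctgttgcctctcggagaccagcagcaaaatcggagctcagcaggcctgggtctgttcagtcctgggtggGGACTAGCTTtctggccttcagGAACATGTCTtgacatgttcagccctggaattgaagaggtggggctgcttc
The second of these decamers lay 2841 bases before the second annotated start of Cdkn1a. Only exact matches were marked. The stretch that directly follows the second decamer differs from the pattern only at its first base, and it stays in lower case. Which decamers p53 uses as a pair therefore cannot be read from this search, and binding was not measured in these libraries.

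Depth was even, from 17791641 to 18509743 counts per library, and a count of 3, the limit that a count of 0 allows, equals 0.162 to 0.169 CPM (counts scaled to the library total). Tcf20 itself stood at 98.6 CPM in KO26F and 104 in KO23M, against 118 in WT25F and 111 in WT22M (log2 fold change -0.18, SE 0.10, edgeR adjusted p = 0.9997), which does not check the labels since the counts span the whole gene. Here and below, the p is from edgeR's quasi-likelihood test of counts, adjusted over all 16252 genes tested, and a gene is called where it is under 0.05. All 12 telencephalon markers were detected in every library, and their summed level ran from 3242 to 3657 CPM. The carriers stood apart from each other in tissue markers. Choroid plexus markers summed to 196 CPM in WT22M against 781 to 1004 in the other libraries, and diencephalon markers to 99.7 CPM in WT25F against 39.96 to 44.7. Erythroid markers summed to 1002 CPM in WT25F against 564 in WT22M, with 713 and 656 in the KO libraries. No marker of any list was at 0 in any library. Because tissue was measured in bulk, fewer cells of a type and less RNA per cell cannot be told apart.

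Trp53 (ENSMUSG00000059552, chromosome 11, 69580359 to 69591873, plus strand) was the most abundant member per length. It stood at 209.9 CPM in KO26F and 223 in KO23M, against 196 in WT25F and 222 in WT22M. WT25F was the lowest library, while WT22M lay between the KO libraries, so the arms overlapped. The log2 fold change of KO against carriers was 0.05 (SE 0.11, 95% interval -0.17 to 0.27, edgeR adjusted p = 0.9997). With 3514 to 4132 counts per library, the 95% counting intervals (exact Poisson, counting error only) were narrow, and that of WT25F (189 to 202 CPM) lay below those of the other libraries, the lowest of which began at 203 CPM in KO26F.

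Mdm2 (ENSMUSG00000020184, chromosome 10, 117688875 to 117710758, minus strand) encodes the ligase that degrades p53 and is itself a p53 target, which closes a negative feedback loop. Its level was 68.8 CPM in KO26F and 58.7 in KO23M, against 60.3 in WT25F and 58.8 in WT22M. KO26F stood above the other libraries, and KO23M was the lowest of the 4. The arms therefore overlapped, and the log2 fold change was 0.09 (SE 0.11, 95% interval -0.14 to 0.33).

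Cdkn1a (ENSMUSG00000023067, chromosome 17, 29090979 to 29100722, plus strand) encodes p21, an inhibitor of cyclin-dependent kinases and the classical p53 target in cell cycle arrest. It stood at 24.2 CPM in KO26F and 22.6 in KO23M, against 24.1 in WT25F and 20.3 in WT22M. The values of the arms interleaved, and a single level would fit within the 95% counting intervals of all 4 libraries. The log2 fold change was 0.07 (SE 0.14, 95% interval -0.22 to 0.37), so a change of Cdkn1a by more than 1.29-fold upward lay outside the interval. Its annotated exons overlap those of AC167363.2 on the opposite strand, and no source used here gives the strand setting of the counting.

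Ccng1 (ENSMUSG00000020326, chromosome 11, 40748552 to 40755311, minus strand) encodes cyclin G1, which acts with a phosphatase on Mdm2. It was measured at 19.1 CPM in KO26F and 16.5 in KO23M, against 18.4 in WT25F and 17.6 in WT22M. The KO libraries were the highest and the lowest of the 4, with both carriers between them. Its log2 fold change was -0.02 (SE 0.15, 95% interval -0.34 to 0.29).

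Among the members that promote death, Bbc3 (ENSMUSG00000002083, chromosome 7, 16308393 to 16318205, plus strand) encodes PUMA, which binds and blocks the anti-apoptotic BCL2 proteins. Bbc3 stood at 24.8 CPM in KO26F and 32.6 in KO23M, against 27.7 in WT25F and 28.7 in WT22M. The KO libraries again bracketed the carriers, with means of 28.7 ± 5.52 CPM (SD, n = 2) in KO and 28.2 ± 0.644 CPM (SD, n = 2) in the carriers. The log2 fold change was 0.02 (SE 0.14, 95% interval -0.27 to 0.32).

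Bax (ENSMUSG00000003873, chromosome 7, 45461697 to 45466898, minus strand) encodes the protein that opens pores in the outer mitochondrial membrane. It stood at 40.9 CPM in KO26F and 43.6 in KO23M, against 39.5 in WT25F and 45.2 in WT22M. Here the carriers bracketed the KO libraries, and both arms had a mean of 42.3 CPM, with an SD of 1.89 in KO and 4.01 in the carriers (n = 2 each). The log2 fold change was -0.01 (SE 0.12, 95% interval -0.25 to 0.24). Exons of Bax overlap those of Gm45808 on the same strand, a gene that is not among the joined genes, so reads of the pair may not be separable.

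Pmaip1 (ENSMUSG00000024521, chromosome 18, 66458604 to 66465550, plus strand) encodes NOXA, a death protein that neutralises Mcl1. It had few counts, 19 in KO26F and 23 in KO23M against 30 in WT25F and 41 in WT22M, which equal 1.05, 1.24, 1.67 and 2.30 CPM. Both KO libraries lay below both carriers, and Pmaip1 was the only 1 of the 10 members whose arms did not overlap, where 27.0% of all genes tested had arms that did not overlap and 13.4% had both KO libraries below. The log2 fold change was -0.79 (SE 0.40, 95% interval -1.63 to 0.04, unadjusted p = 0.0618, edgeR adjusted p = 0.9997). It did not pass the test, and the interval ran from 0.323-fold to 1.03-fold.

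The size of the Pmaip1 difference depended on the carrier used, being -1.03 on the log2 scale without WT25F and -0.53 without WT22M. Summed markers of 3 other cell types were also lower in both KO libraries than in both carriers. Microglia and macrophage markers summed to 104 and 108 CPM in KO26F and KO23M against 115 and 135 in WT25F and WT22M, with both KO libraries below both carriers for 9 of 12 genes and above for 1. Mesenchyme and meninges markers summed to 316 and 332 CPM against 394 and 403, with KO below for 6 of 8, and endothelium and pericyte markers to 368 and 370.5 against 416 and 412, with KO below for 5 of 10. Over all genes tested, both KO libraries lay below both carriers for 13.4% and above for 13.6%. The part of these cell types in the Pmaip1 values was not tested.

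Eda2r (ENSMUSG00000034457, chromosome X, 97333840 to 97377216, minus strand) encodes a receptor of the tumour necrosis factor family that binds ectodysplasin A2. It was the least abundant member, with 16 counts in KO26F and 29 in KO23M against 20 in WT25F and 9 in WT22M, which equal 0.883, 1.57, 1.11 and 0.506 CPM. KO23M was highest and WT22M lowest, while KO26F lay between the carriers. The log2 fold change was 0.60 (SE 0.52, 95% interval -0.47 to 1.66), an interval that reaches from 0.723-fold to 3.16-fold, so even a 2-fold difference was not resolved at this depth.

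Phlda3 (ENSMUSG00000041801, chromosome 1, 135766119 to 135769136, plus strand) encodes a protein that competes with Akt for membrane lipids and so lowers survival signalling. It stood at 7.67 CPM in KO26F and 11.02 in KO23M, against 7.97 in WT25F and 9.50 in WT22M. The KO libraries were the lowest and the highest, and the log2 fold change was 0.10 (SE 0.21, 95% interval -0.33 to 0.53).

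Sesn2 (ENSMUSG00000028893, chromosome 4, 132492032 to 132510501, minus strand) encodes sestrin 2, a leucine sensor that restrains the growth kinase complex mTORC1. It stood at 13.3 CPM in KO26F and 17.0 in KO23M, against 15.4 in WT25F and 13.1 in WT22M. The arms overlapped, since KO26F lay between the carriers, and the log2 fold change was 0.09 (SE 0.17, 95% interval -0.27 to 0.44).

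**Figure D1:**
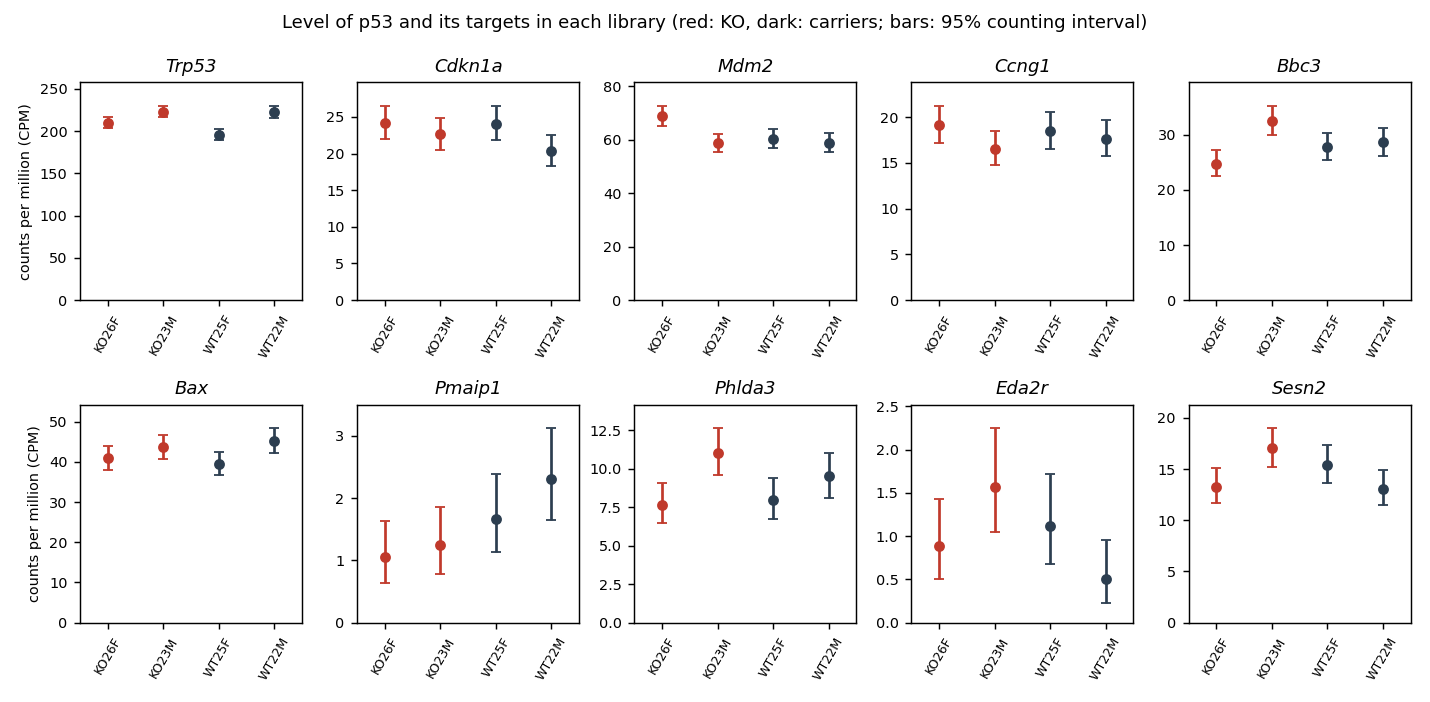
Level of each of the 10 genes in CPM (vertical axes, each from 0) in the libraries KO26F, KO23M, WT25F and WT22M, with points for libraries (red for KO, dark for carriers) and bars for the 95% counting interval. KO and carrier points overlap for 9 genes, and for Pmaip1 both KO points (1.05 and 1.24) lie below both carriers (1.67 and 2.30).

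Per length of annotated exon, the members ranged widely, and this order was led by Trp53 at a mean of 52.6 CPM per kilobase over the 4 libraries. Bax followed at 26.8, Bbc3 at 13.4, Mdm2 at 12.1, Cdkn1a at 6.41, Phlda3 at 5.80, Ccng1 at 5.11 and Sesn2 at 4.23 CPM per kilobase. Pmaip1 stood at 0.573 and Eda2r at 0.173 CPM per kilobase. The ranges over libraries overlapped between the neighbours Bbc3 and Mdm2, Cdkn1a and Phlda3, Phlda3 and Ccng1, and Ccng1 and Sesn2, so those neighbours were not separated. The other neighbours did not overlap. Within a gene, the highest library exceeded the lowest by 1.14-fold for Trp53 and for Bax, by 1.44-fold for Phlda3, by 2.199-fold for Pmaip1 and by 3.10-fold for Eda2r. For Cdkn1a, Ccng1 and Bax, 3 of the 10 members, a single level lay inside the counting intervals of all 4 libraries. The counts of all members together came to 411 CPM in KO26F and 428 in KO23M, against 392.1 in WT25F and 418 in WT22M, with Trp53 the largest part in each.

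In the test of KO against carriers with edgeR's quasi-likelihood method, 0 of the 10 members were called at an adjusted p under 0.05, where 0.0615% of all genes tested were called (10 of 16252). At an unadjusted p under 0.05 there were also 0 members, against 2.86% of all genes tested, and DESeq2 called 0 members. Of the members, 7 had a log2 fold change above 0 and 3 below, with a median of 0.06, where the median of all genes tested was 0.00 with 8232 above 0 and 8020 below. The number of all genes called grew to 48 without KO26F and 65 without KO23M, and to 100 without WT25F or 59 without WT22M, and 0 members were called in each case.

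WT25F is the only library whose labels agree on a wild type, and KO was also set against it alone, in a fit whose spread comes from the KO libraries. There 0 of 10 members were called by edgeR, against 0.345% of all genes tested (56 of 16252), and 0 had an unadjusted p under 0.05, against 3.43% of all genes. The fitted folds ran from 0.693 for Pmaip1 to 1.19 for Phlda3. For 7 members the 95% interval lay within 1.5-fold, and Phlda3, with an interval of 0.849-fold to 1.66-fold, was outside it beside Pmaip1 and Eda2r. The number of all genes called was 6 with the spread taken from the 2-arm comparison, and with that spread it was 5 without KO26F and 7 without KO23M, with 0 members called in each.

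WT22M was set against WT25F in the same fit, which compares 2 libraries and not 2 genotypes. Again 0 of 10 members were called by edgeR, against 0.714% of all genes tested (116 of 16252), with 0 at an unadjusted p under 0.05, against 4.88% of all genes. Eda2r had a log2 fold change of -1.10 (SE 0.79, 95% interval -2.65 to 0.46) and Pmaip1 of 0.49 (SE 0.56, 95% interval -0.61 to 1.59). The other members lay between -0.22 (Cdkn1a) and 0.28 (Phlda3). These comparisons share WT25F, so their values are not independent. For Trp53 the log2 fold change was 0.16 (SE 0.15) for KO against WT25F and 0.22 (SE 0.17) for WT22M against WT25F. For Bax these values were 0.11 (SE 0.16) and 0.23 (SE 0.18).

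**Figure D2:**
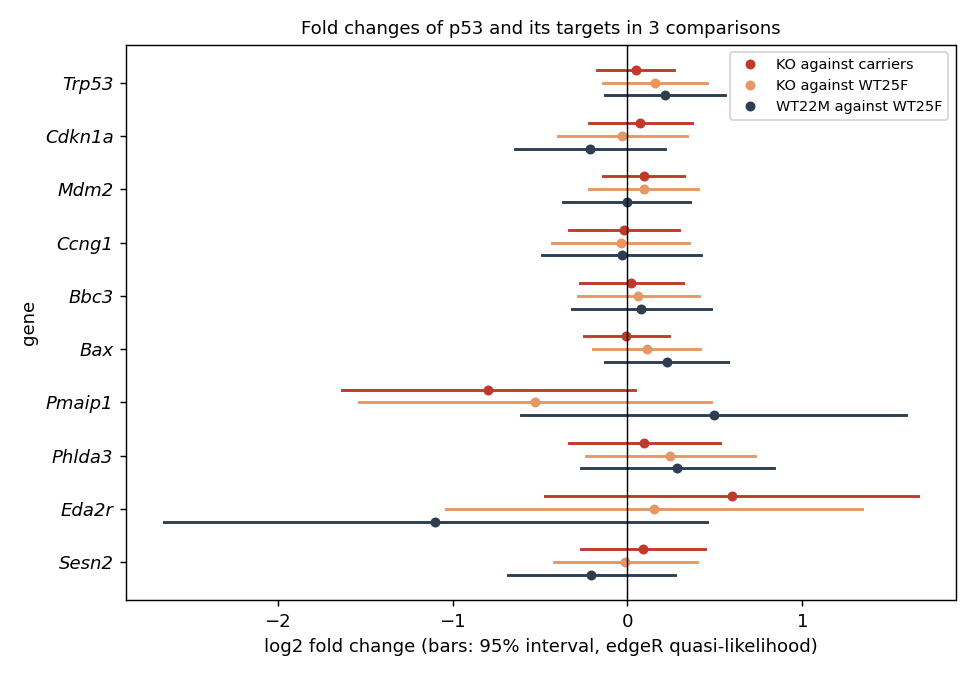
Log2 fold change (horizontal axis) of each gene (vertical axis) for KO against carriers (red), KO against WT25F (orange) and WT22M against WT25F (dark), with bars for the 95% interval of edgeR's quasi-likelihood fit. Every bar crosses 0, and the bars of Pmaip1 and Eda2r are the widest.

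The authors' deposited tables each set 1 library against WT25F, and among the 10 members 0 carried the mark of significance in any table. The authors' deposited tables marked 1.96% of genes for KO26F, 2.90% for KO23M and 3.62% for WT22M. At an adjusted p under 0.05 without a limit on the fold, the authors' deposited table for KO26F listed 2 members, Trp53 and Mdm2, where 13.7% of its genes passed. The authors' deposited table for KO23M listed 3 members, Trp53, Bbc3 and Phlda3, where 22.1% of its genes passed. The authors' deposited table for WT22M also listed 3, Trp53, Cdkn1a and Bax, where 22.4% passed. Trp53 was above WT25F in each of the authors' deposited tables, with a log2 fold change of 0.10 (adjusted p = 0.0219) for KO26F, 0.19 (adjusted p = 2.26e-07) for KO23M and 0.18 (adjusted p = 8.13e-07) for WT22M. The largest fold among these 8 listings was that of Phlda3 in KO23M, a log2 fold change of 0.47 (adjusted p = 0.0127) in the authors' deposited table. Those p-values compare single libraries, all with the same WT25F.

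The letters F and M end the library titles, and ratios were also taken within each letter, KO26F to WT25F and KO23M to WT22M. They pointed in opposite directions for 7 of the 10 members, and for 0 of these were both 95% counting intervals (exact Clopper-Pearson) away from 0. The share of all genes tested with opposite directions was not computed, so this count cannot be read as particular to the members. For Sesn2 the log2 ratio was -0.22 (95% counting interval -0.47 to 0.04) for F and 0.38 (0.13 to 0.63) for M. For Eda2r it was -0.34 (-1.38 to 0.69) for F and 1.63 (0.51 to 2.89) for M. For Bbc3 it was -0.16 (-0.35 to 0.02) for F and 0.18 (0.01 to 0.36) for M. For these genes the M ratio alone was clear of counting error, and no replicate stands behind either ratio. Trp53, Cdkn1a and Pmaip1 kept their sign in both. For Pmaip1 the log2 ratio was -0.67 (-1.58 to 0.20) for F and -0.89 (-1.69 to -0.12) for M. For Mdm2 it was 0.19 (0.07 to 0.31) for F and -0.0030 (-0.13 to 0.12) for M. The difference between the letters was not tested.

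**Figure D3:**
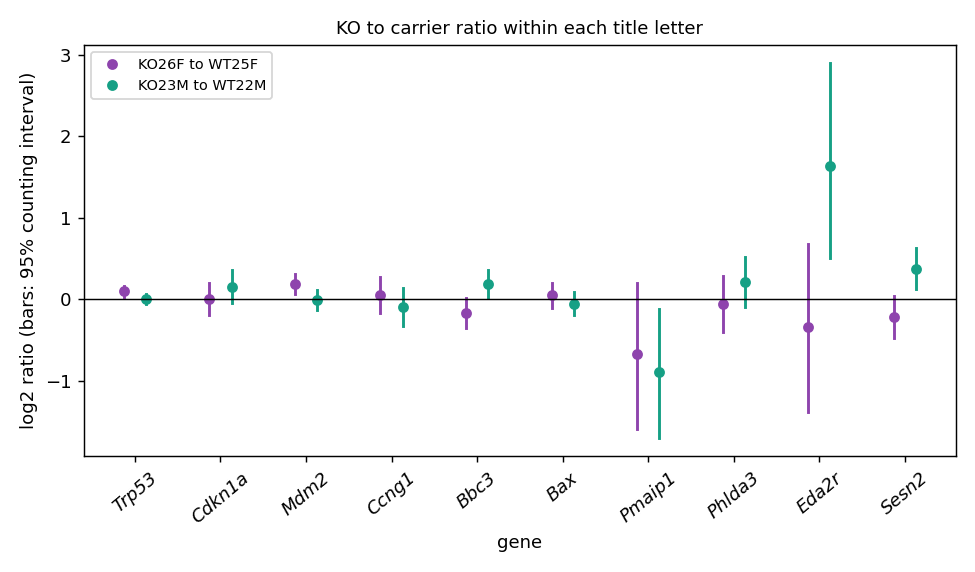
Log2 ratio of KO to carrier (vertical axis) for each gene (horizontal axis) within the title letter F (purple, KO26F to WT25F) and M (green, KO23M to WT22M), with bars for the 95% counting interval. The signs differ for 7 genes, and the ratios of Eda2r lie farthest apart, at -0.34 and 1.63.

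The wider pathway was read from 7 lists of genes that regulate p53, answer to it or carry out apoptosis. With the members these came to 102 tested genes, of which 0 were called by edgeR in any of the 3 comparisons. For KO against carriers, 64 had a log2 fold change above 0 and 38 below, with a median of 0.05 beside 0.00 for all genes tested. Both KO libraries lay above both carriers for 23 of them and below for 10, where the shares for all genes tested were 13.6% and 13.4%. At an unadjusted p under 0.05 there was 1 of 102 genes (0.980%), against 2.86% of all genes tested. In KO against WT25F it was 2 of 102 genes, 9030617O03Rik and Pidd1, against 3.43% of all genes tested. Named genes are the 4 with the smallest unadjusted p of KO against carriers in each list. Arms that lie apart among the named genes therefore follow in part from that choice.

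Among 13 tested regulators and relatives of p53, 11 had a log2 fold change above 0 and 2 below, with a median of 0.07, and 0 were called. Ppm1d, a phosphatase that switches off the DNA damage response and is itself a p53 target, stood at 35.7 CPM in KO26F and 28.8 in KO23M, against 28.1 in WT25F and 27.0 in WT22M. Chek1, the checkpoint kinase of stalled replication, stood at 16.4, 15.9, 14.3 and 13.2 CPM in the same order. Both KO libraries lay above both carriers for these genes, as they did for Prkdc, the DNA-dependent protein kinase, and Rchy1, a further ubiquitin ligase of p53. Their log2 fold changes were 0.22 (SE 0.13) for Ppm1d, 0.23 (SE 0.16) for Chek1, 0.21 (SE 0.16) for Prkdc and 0.15 (SE 0.12) for Rchy1. Over the 13 genes, both KO libraries lay above both carriers for 5 and below for 0, against 13.6% and 13.4% of all genes tested. In WT22M against WT25F, 12 of the 13 were below 0, with a median of -0.05.

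Of 13 further genes listed for arrest and feedback, 9 lay above 0 and 4 below (median 0.06), with 0 called. Sesn1, a relative of Sesn2 that also restrains mTORC1, stood at 47.4 CPM in KO26F and 45.2 in KO23M against 40.4 in WT25F and 40.7 in WT22M (log2 fold change 0.19, SE 0.11). Both KO libraries lay above both carriers here, unlike for Sesn2. They did so for 5 of the 13 genes of the list and lay below for 1, against 13.6% and 13.4% of all genes tested. Cdkn1b, the kinase inhibitor p27 and a relative of Cdkn1a, had a log2 fold change of 0.13 (SE 0.10), and whether p53 regulates Cdkn1b was not tested. Psrc1 and Ckap2, which act on the mitotic spindle, had values of 0.12 (SE 0.11) and 0.11 (SE 0.11). None of the 4 passed the test.

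Of 17 further targets in death and stress, 13 lay above 0 and 4 below (median 0.09), with 0 called. The enzyme gene 9030617O03Rik had the smallest unadjusted p of the 102 genes. It stood at 3.64 CPM in KO26F and 6.10 in KO23M, against 2.67 in WT25F and 2.70 in WT22M. Both KO libraries lay above both carriers, with a log2 fold change of 0.86 (SE 0.29, unadjusted p = 0.00769, edgeR adjusted p = 0.9997). It was 0.41 without KO23M and 1.20 without KO26F (edgeR adjusted p = 0.112 for the latter). Among the genes named here, exons of Rchy1, Tnfrsf23, Bcl2, Bid and Endog overlap another gene on the opposite strand, and those of Ephx1 a pseudogene on their own strand. Ephx1, an epoxide hydrolase, had a log2 fold change of 0.40 (SE 0.24), and Tnfrsf23, a decoy death receptor at 0.899 to 1.54 CPM, of 0.72 (SE 0.44). Pidd1, the scaffold that activates caspase 2, stood at 37.0 and 37.8 CPM in KO26F and KO23M against 29.9 in WT25F and 35.5 in WT22M (log2 fold change 0.19, SE 0.12). The 4 genes named from this list lay apart between arms without passing the test, and they were picked for their small unadjusted p. Over the 17 genes of the list, both KO libraries lay above both carriers for 6 and below for 1, against 13.6% and 13.4% of all genes tested.

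Of 11 further targets in DNA repair, 5 lay above 0 and 6 below, with a median of 0.00 and 0 called. Over these 11 genes, both KO libraries lay above both carriers for 2 and below for 1, against 13.6% and 13.4% of all genes tested. Mgmt, which removes alkyl groups from guanine, had a log2 fold change of 0.53 (SE 0.36). Ercc5, a nuclease of excision repair, had 0.17 (SE 0.12), and Pcna, the sliding clamp of DNA polymerases, 0.09 (SE 0.10). Polk, a polymerase that bypasses damage, had -0.17 (SE 0.27).

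Of 11 tested members of the BCL2 family outside the p53 targets above, 4 lay above 0 and 7 below (median -0.04), with 0 called. Bcl2l11, the death activator BIM, stood at 16.8 and 17.8 CPM in KO26F and KO23M against 14.8 in WT25F and 13.3 in WT22M (log2 fold change 0.29, SE 0.16). Bcl2, the founding survival protein, stood at 23.8 and 23.7 CPM against 25.97 and 29.3 in the same order (log2 fold change -0.22, SE 0.14). Both pairs of arms were apart, BIM with KO above and Bcl2 with KO below, and neither gene passed the test. Over the 11 genes of the list, both KO libraries lay above both carriers for 1 and below for 1, against 13.6% and 13.4% of all genes tested. Bid and Bcl2l1 had log2 fold changes of -0.14 (SE 0.16) and -0.07 (SE 0.10).

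Of 16 caspases, apoptosome parts and inhibitors, 9 lay above 0 and 7 below (median 0.01), with 0 called. Over these 16 genes, both KO libraries lay above both carriers for 3 and below for 2, against 13.6% and 13.4% of all genes tested. Casp6, an executioner caspase, stood at 18.1 and 15.6 CPM in KO26F and KO23M against 19.7 and 21.1 in WT25F and WT22M (log2 fold change -0.28, SE 0.15). Birc2, an inhibitor of death signalling, had a log2 fold change of 0.24 (SE 0.13), and Casp2 of 0.15 (SE 0.11). Endog, a mitochondrial nuclease, had 0.23 (SE 0.25), with KO26F at 7.67 CPM and the other libraries between 4.70 and 5.57. Of 11 death receptors, ligands and adaptors, 6 lay above 0 and 5 below (median 0.05), with 0 called. Over these 11 genes, both KO libraries lay above both carriers for 1 and below for 3, against 13.6% and 13.4% of all genes tested. Eda, whose A2 isoform is the ligand of Eda2r, stood at 5.68 and 5.24 CPM in KO26F and KO23M against 7.13 and 5.90 in WT25F and WT22M (log2 fold change -0.26, SE 0.22). Its related receptor Edar had 0.46 (SE 0.40), and the adaptors Traf2 and Traf6 had 0.16 (SE 0.14) and 0.14 (SE 0.15).

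**Figure D4:**
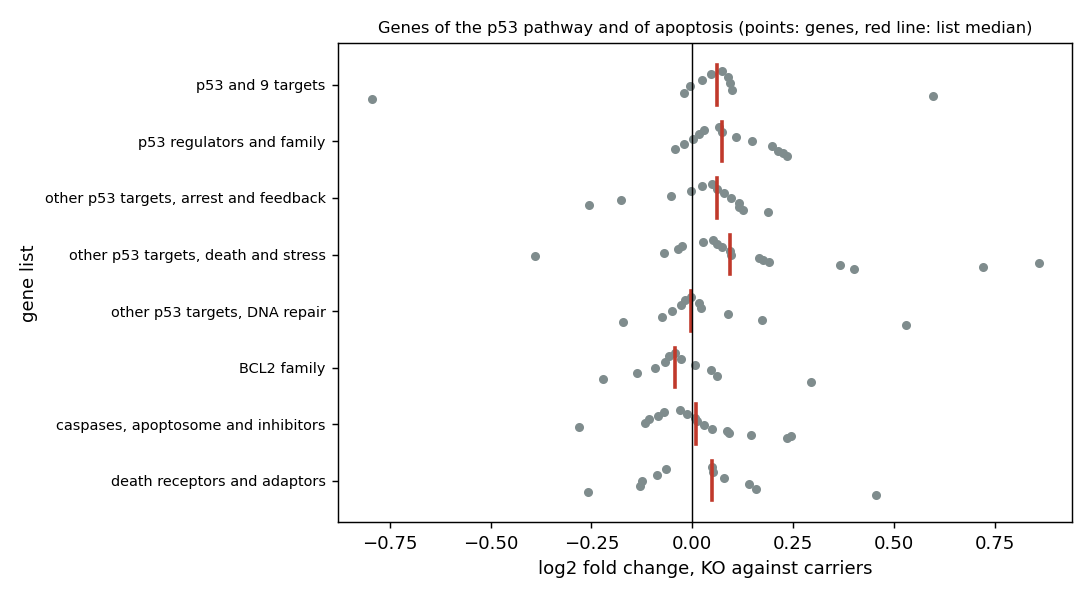
Log2 fold change of KO against carriers (horizontal axis) for each tested gene (points) of the 8 lists (vertical axis), with a red line at each list's median. The medians run from -0.04 (BCL2 family) to 0.09 (other targets in death and stress), and no gene passed the test.

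The profile of Cdkn1a over the 4 libraries was compared with 98 genes of these lists and members, by the root mean square difference of log2 CPM centred on each gene's mean. The closest was Ccng2, a relative of Ccng1, at 0.030 on the log2 scale. Ccng2 was lowest in WT22M and highest in WT25F, while Cdkn1a was lowest in WT22M with KO26F and WT25F nearly equal. Over 4 libraries this is a description of likeness.

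The decamer was also counted in the other genes of the pathway. It was in a RefSeq window of 11 of 35 matched genes of the 3 other target lists (31.4%), and of 17 of 86 matched genes of all 7 other lists (19.8%), beside the 9.55% of all genes. Log2 fold changes of KO against carriers overlapped between members with and without an exact match in their windows. Sites with a mismatch or outside the windows were not sought, and Pmaip1 (-0.79) had no window. Trp53, Mdm2, Cdkn1a, Ccng1 and Bax, which hold a match, ran from -0.02 to 0.09 on the log2 scale. Bbc3, Phlda3 and Sesn2, which do not, ran from 0.02 to 0.10, with Eda2r at 0.60.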

How the data were processed

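Per the submitters' processing notes, Bowtie2 2.2.3, TopHat2 2.0.12 and HTSeq 0.6.0 were used with build mm9. Of the 22039 genes found in GENCODE vM21 of GRCm38, 20222 have the identical position there (91.8%), so positions are given on GRCm38, which differs from that build. No source used here gives the settings for strand or for multiply matching reads. Per the file headers, the authors deposited whole-number counts for each library beside WT25F. They also deposited CPM values, a fold change as a linear ratio, a log2 fold change, and p-values with adjusted p-values from a test that no source used here names. Every gene with the authors' mark of significance had an adjusted p under 0.05 and a log2 fold change of 1 or more in size. Whether every gene within both limits carries the mark was not checked.

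The 3 tables were joined by gene identifier, with genes absent from a table set to 0. CPM was computed from the counts and the library totals. Levels per kilobase used the exon length of GENCODE vM21. Counts of all genes were tested with edgeR 4.0.16 (robust quasi-likelihood, TMM, filterByExpr, Benjamini-Hochberg threshold 0.05), and members were read from that fit. Comparisons with WT25F came from a fit of 3 groups, in which lone libraries are assumed to vary like the KO pair. Intervals of fold changes are at the 95% level, and counting intervals and the floor of 3 counts cover counting error only. Alternatives were RLE size factors, DESeq2 1.42.0, 2 other filters, the title letter as a block, the 2-arm spread and each library left out. Scripts were tested on simulated data, where KO against carriers recovered 34.3% of 1.5-fold and 62.7% of 2-fold changes. For WT22M against WT25F these shares were 8.96% and 38.8%, so a gene that is not called may still differ. R 4.3.3 and Python 3.11.15 were used. Promoter windows came from RefSeq (GRCm38.p6).

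The members and gene lists were chosen with earlier results of these data known. Of 169 list symbols, 166 were found. Genes are named by a rule: all members, the 4 genes with the smallest unadjusted p of each list in KO against carriers and any listed gene past the threshold, and the 3 genes most like Cdkn1a, of which 1 is reported here. Marker lists are described by their sums.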

Additional observations from a re-analysis of the deposited data

How the results depend on the processing

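Members called stayed at 0 under every alternative run in the 3 comparisons. The lowest adjusted p of a member was 0.753, in the replicate block fit (title letter). DESeq2 gave no adjusted p for Eda2r in KO against WT25F, so Eda2r could not be called there. The count of all genes called moved more. For KO against carriers it was 10, against 123 with the replicate block and 48 to 100 with 1 library left out. The letter is not a stated pairing, and the difference between the KO libraries correlated with that between the carriers at r = 0.121 across 15687 autosomal genes, which are not independent replicates. For KO against WT25F it was 56, against 23 with DESeq2, 0 without a filter (353 at an unadjusted p under 0.05, edgeR), 6 with the 2-arm spread, and 5 to 7 with that spread and a KO library left out. For WT22M against WT25F it was 116, against 33 with DESeq2, 0 without a filter (520 unadjusted, edgeR) and 0 with the 2-arm spread (347 unadjusted, edgeR). Of 150 member values under alternatives that kept all libraries, 149 kept their direction, and Mdm2 in WT22M against WT25F went from -0.0036 to 0.0042 on the log2 scale without a filter. Leaving out 1 library turned the direction in 19 of 60 member values, none of them called. For KO against carriers the log2 fold changes then ran from -0.061 to 0.16 for Trp53, -0.0049 to 0.18 for Mdm2, -0.028 to 0.18 for Cdkn1a, -0.11 to 0.060 for Ccng1, -0.21 to 0.22 for Bbc3, -0.12 to 0.11 for Bax, -0.21 to 0.35 for Phlda3 and -0.13 to 0.27 for Sesn2. Pmaip1 (-1.03 to -0.53) and Eda2r (0.10 to 1.25) kept theirs. Of the other named genes, Bcl2l1 ran from -0.15 to 0.0053, Endog from -0.14 to 0.53, Polk from -0.38 to 0.074, Traf2 from -0.0088 to 0.30 and Traf6 from -0.021 to 0.28, while 9030617O03Rik (0.41 to 1.20), Ppm1d (0.08 to 0.35) and Pidd1 (0.05 to 0.34) kept their direction. For KO against WT25F the ranges were -0.17 to 0.27 for Bbc3, -0.12 to 0.044 for Ccng1, -0.34 to 0.52 for Eda2r, -0.0034 to 0.18 for Mdm2, -0.065 to 0.50 for Phlda3 and -0.22 to 0.18 for Sesn2. The cause of these shifts was not tested. Few counts limit Pmaip1 (19 to 41 per library) and Eda2r (9 to 29), and 2 libraries per arm limit all members.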
